A study of Homo sapiens with 18 samples.

Results

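Clone F2 is a derivative of the G401 malignant rhabdoid tumour cell line in which both copies of RB1 were deleted with CRISPR/Cas9. Its transcriptome was compared between 3 biological replicates given 10 µM tazemetostat, which blocks the enzyme EZH2, and 3 given the same volume of DMSO, each for 11 days. These are 6 of the 18 samples of the series. Tested genes were those with a mean of at least 10 normalized counts over the 6 libraries, which left 16193 of 55765 listed genes. The comparison lines are WT, the same parental line edited at the AAVS1 safe harbour locus, and E1, a second clone with biallelic RB1 deletion; each has 3 replicates with 10 µM tazemetostat and 3 with DMSO over the same 11 days. All 3 lines descend from G401, an established line that lacks SMARCB1. Every replicate of F2 comes from 1 clone, so loss of RB1 and other properties of that clone cannot be told apart. RNA was poly(A)-selected and sequenced in paired-end reads, and the values are counts per gene divided by a size factor per library.

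EZH2 is the catalytic subunit of Polycomb repressive complex 2 (PRC2), which methylates a lysine of histone H3 and thereby keeps developmental genes silent. Rhabdoid tumours arise through loss of SMARCB1, a subunit of the SWI/SNF chromatin remodelling complex that opposes Polycomb. RB1 binds E2F transcription factors and restrains genes needed for DNA replication and mitosis, and EZH2 itself belongs to the E2F-regulated genes.

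The F2 libraries held 25709489 to 35435391 reads and had reads in 21616 to 25472 genes. SMARCB1 had 0 reads in all 6, where up to 3 reads per library would still count as not detected. RB1 transcript was 861, 804 and 852 normalized counts with DMSO and 945, 932 and 936 with tazemetostat. The DMSO mean was 31.1% of that of WT with DMSO (2694 ± 132, SD, n = 3), with all F2 libraries below all WT libraries (exact two-sided permutation test, p = 0.1, the smallest that 3 against 3 allows). The study's design text reports absence of the protein by immunoblot, and the remaining transcript does not measure protein. The keratins KRT8 and KRT18 and vimentin (VIM), which rhabdoid cells express together, were present throughout, with VIM at 29545 and 47556 normalized counts with DMSO and tazemetostat. The blood markers PTPRC, CD3E and HBB had at most 2 reads in a library, and the summed level of all 5 blood markers was 8.30 to 15.4 with DMSO and 12.6 to 21.2 with tazemetostat. Summed markers of other tissues were higher with tazemetostat, but not every member was. The 5 epithelial markers summed to 132 to 186 with DMSO and 2690 to 3152 with tazemetostat, mostly KRT5 (0 and 2600). EPCAM was 16.4 and 7.03, and SYP in the neuron sum below was 324 and 202. By the threshold given below, 2 of 4 tested epithelial, 2 of 2 tested endothelial and 1 of 2 tested neuron markers rose. No skeletal muscle or kidney marker passed the filter. The 3 endothelial markers summed to 2.05 to 3.11 with DMSO and to 59.2 to 72.7 with tazemetostat, the neuron markers TUBB3, SYP and RBFOX3 to 2811 to 3709.5 and 5784 to 6856, the 3 skeletal muscle markers to 1.21 to 2.07 and 20.4 to 36.3, and the 3 kidney markers, of which UMOD had no read, to 0 and 1.01 to 5.83. The part of such cells in the results below was not tested. In such bulk RNA, a change in the share of cells that express a gene and a change in RNA per cell cannot be told apart. A first principal component with 95.8% of the variance separated the treatments. F2 DMSO replicate 3, the shallowest library, stood apart from the others on the second, which held 1.86%; without it 2168 genes were higher and 606 lower, against the 2113 and 608 given below. Correlations of log2 values over the tested genes were 0.993 to 0.996 between libraries of a treatment and 0.838 to 0.849 between treatments.

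With tazemetostat, 2113 genes were higher (13.0% of those tested) and 608 lower (3.75%), so 77.7% of the changed genes had risen. Here and below a gene rose or fell when limma's Benjamini-Hochberg adjusted p was under 0.05 and the change at least 1 in size on the scale of log2(normalized count + 1). The median change was 4.09 among genes that rose and -1.37 among genes that fell, against 0.02 over all tested genes. With the 421 genes that had no read in any DMSO library set at a floor of 3 reads per library, the median of the genes that rose was 3.40. Rises reached further than falls: 798 genes rose by at least 5 log2 units and 2 fell as far. Many of these rises started from near silence. Of 1287 tested genes with a DMSO mean under 10, 1167 rose, but such genes entered the test through their level with tazemetostat and so had to differ. Among the 14906 genes with a DMSO mean of at least 10, 946 rose (6.35%) and 608 fell (4.08%). Between 1000 and 10000 normalized counts with DMSO there were 128 rises and 160 falls among 6158 genes. Above that there were 8 rises and 30 falls among 492 genes. These levels come from the DMSO libraries, 1 side of the comparison, so the split into rises and falls depends in part on the sorting. A DMSO mean of at least 10 kept all 608 falls but 946 of the 2113 rises. Genes that rose took 1.84 ± 0.094% of all counts with DMSO and 8.16 ± 0.073% with tazemetostat (SD, n = 3), and genes that fell took 4.20 ± 0.012% and 1.47 ± 0.0071%.

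**Figure D1:**
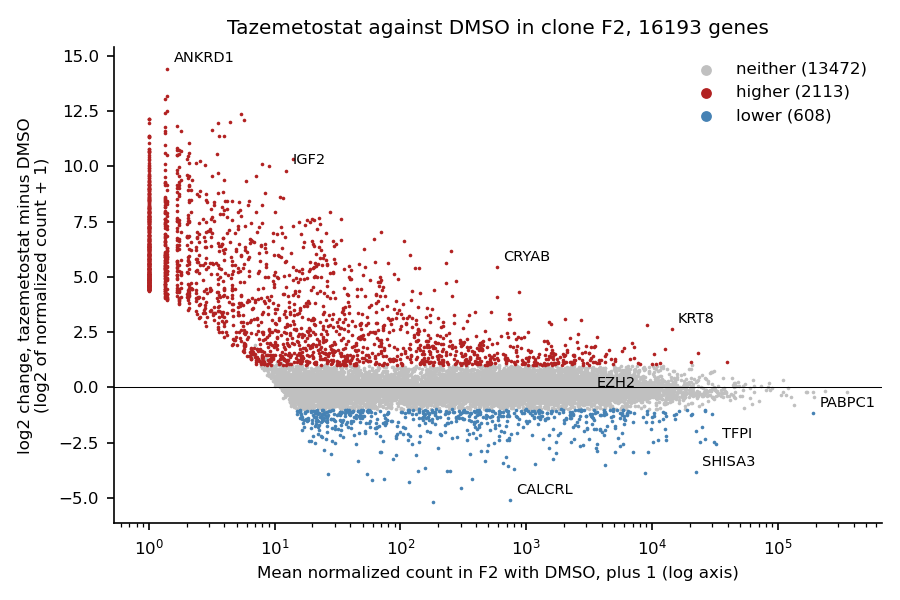
Log2 change with tazemetostat in clone F2 (vertical axis, log2 of normalized count + 1) against the mean normalized count with DMSO plus 1 (horizontal log axis), 1 point per tested gene. The 2113 genes that rose are red and concentrate at low DMSO levels, and the 608 that fell are blue; the empty lower left corner follows from the filter on the mean.

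The steepest rise was that of ANKRD1, a cardiac ankyrin repeat protein and a target of the Hippo pathway effectors YAP and TEAD. It had 0, 0 and 1.21 normalized counts with DMSO, which is 1 read in all, and 28986, 28774 and 28511 with tazemetostat. The ratio of the groups was 79479.9 (95% exact counting interval 14265 to 3139320.0). CNTNAP2, a neurexin-like cell adhesion protein of axons, went from 1 read in the DMSO libraries to 12196, 11649 and 12431 normalized counts. POSTN, the matrix protein periostin, likewise had 1 read with DMSO and reached 11119, 10631 and 10958. The next in order were NRP2, a semaphorin and VEGF co-receptor, at 7541 normalized counts with tazemetostat, and PDLIM1, a cytoskeletal LIM protein, at 7006, each again from 1 read. CALD1, the actin-binding caldesmon, had 11.3, 2.07 and 0 normalized counts with DMSO and 17574, 17445 and 18799.7 with tazemetostat. Of the 12 steepest rises, 4 had no read in any DMSO library. These were ACTA2 (smooth muscle actin, at least 1399-fold higher against 3 reads per library), SULF1 (an extracellular heparan sulfatase, at least 1401-fold), SPP1 (osteopontin, at least 1369-fold) and PDE4B (a cyclic AMP phosphodiesterase, at least 1228-fold). The remaining pair, the teneurin TENM3 and the long noncoding RNA UCA1, rose by 12.09 and 11.99 log2 units, to 18365 and 13193 normalized counts.

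The stretch before the start of ANKRD1 is shown because it heads the list of rises; it and the other promoters below come from RefSeq on GRCh38.p14, in which 10143 of the 16193 tested genes (62.6%) had an entry. Each is the 240 bases before 1 transcription start per gene, written in the direction of the gene. Other starts of a gene were not searched. Capitals mark matches on either strand to 6 motifs, each given with the share of all 27305 promoters that hold it over the same length. The TATA box was searched as TATAAA and was found in 10.7% of promoters. The box bound by the factor NF-Y was searched as CCAAT and was found in 32.3%. The site of TEAD factors was searched as GGAATG and was found in 11.4%. The site of AP-1 factors was searched as TGANTCA and was found in 6.34%. The interferon element was searched as GAAANNGAA and was found in 6.77%. The CArG box of serum response factor was found in 1.11%. Matches may overlap. A match describes the letters only and says nothing of binding.
ANKRD1: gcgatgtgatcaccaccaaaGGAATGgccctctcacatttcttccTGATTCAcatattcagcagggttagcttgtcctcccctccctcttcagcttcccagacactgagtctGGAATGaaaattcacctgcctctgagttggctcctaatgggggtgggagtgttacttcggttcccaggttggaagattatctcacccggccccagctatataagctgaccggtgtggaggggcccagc
In ANKRD1 (chr10:90921088-90921327, minus strand) the capitals are 2 TEAD matches with 1 AP-1 match between them. Of the other steepest rises with an entry, CALD1 held a TEAD match, POSTN an AP-1 match and TENM3 neither. The windows searched for CNTNAP2, NRP2, PDLIM1, ACTA2, SPP1 and PDE4B held no match to any of the motifs.

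The deepest falls were smaller than the rises and left some transcript. RP11-645C24.2, a transcript known by a clone name, had 178, 154 and 208 normalized counts with DMSO and 6.8, 7.07 and 0.925 with tazemetostat. CALCRL, the calcitonin receptor-like receptor for adrenomedullin and CGRP, fell from 770.4, 682 and 775 to 20.4, 18.2 and 24, which is -5.09 ± 0.31 (SE) on the log2 scale with an adjusted p of 6.52e-11 by limma. The zinc finger factor ST18 fell from 300.1 to 12.9 on average, and the transcripts DLGAP1-AS3, AC004540.4 and LINC00052 changed by -4.31, -4.13 and -3.88 log2 units. LINC00052 had 8725 ± 359 normalized counts with DMSO and 591 ± 34.2 with tazemetostat (SD, n = 3). SHISA3, of a family that restrains WNT and FGF receptors, started highest of these: 21874, 23896 and 21018 against 1628, 1445 and 1579. ATOH7, a factor of retinal ganglion cells, changed by -3.81, the tumour antigen PRAME by -3.80 and the canalicular transporter ABCC2 by -3.77 log2 units. These 10 genes were picked among those whose groups did not overlap, so the separation of their libraries adds no support. The promoter of CALCRL (chr2:187448253-187448492, minus strand), printed as 1 of the deepest falls, held none of the letters searched in this window. The same was so for several of the steepest rises.
CALCRL: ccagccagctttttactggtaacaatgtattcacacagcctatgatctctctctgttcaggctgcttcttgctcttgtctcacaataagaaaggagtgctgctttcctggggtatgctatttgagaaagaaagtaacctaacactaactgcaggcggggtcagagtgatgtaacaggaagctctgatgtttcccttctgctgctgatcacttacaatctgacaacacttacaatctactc

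By amount of transcript, the largest gain was that of KRT8. KRT8, the type II keratin of simple epithelia, went from 13901, 15147 and 13831 normalized counts with DMSO to 90273, 86592 and 88100.5, and its partner KRT18 from 9794, 9093 and 8218 to 67295, 59904 and 62744. Both genes have near-identical pseudogenes, so reads may be split between copies. Log2 changes of KRT8 and KRT18 were 2.63 ± 0.13 and 2.81 ± 0.09 (SE). The giant scaffold protein AHNAK, tropomyosin TPM1 and nonmuscle myosin MYH9 gained by 2.22-fold, 2.92-fold and 2.19-fold. AHNAK was the least even of these, at 34557, 32908 and 50457 with DMSO. LTBP2, a latent TGF-beta binding protein of microfibrils, rose 3.37-fold and the urokinase PLAU 4.06-fold. CRYAB, the small heat shock protein alpha B-crystallin, rose from 628, 590.2 and 541 to 28058, 22723 and 26841, a change of 44.1-fold. The 10 largest gains, ANKRD1 among them, together went from 0.401 ± 0.038% to 1.52 ± 0.019% of all counts (SD, n = 3).

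The largest losses were PABPC1, the cytoplasmic poly(A)-binding protein, from 192768, 198012 and 178075 to 88099.7, 84621 and 81499 normalized counts, with the same doubt about near-identical copies, and TFPI, the tissue factor pathway inhibitor, from 34543, 32028 and 30192 to 5334, 5192 and 5570.3. MMRN1, the platelet and endothelial protein multimerin, changed by -2.48 log2 units, and RBPJ, the DNA-binding effector of Notch, by -2.34. HES1, a target of Notch and RBPJ, moved the other way, from 4.2 to 1204 normalized counts. Together with SHISA3, the 4 genes took 0.935 ± 0.023% of counts with DMSO and 0.312 ± 0.0081% with tazemetostat.

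**Figure D2:**
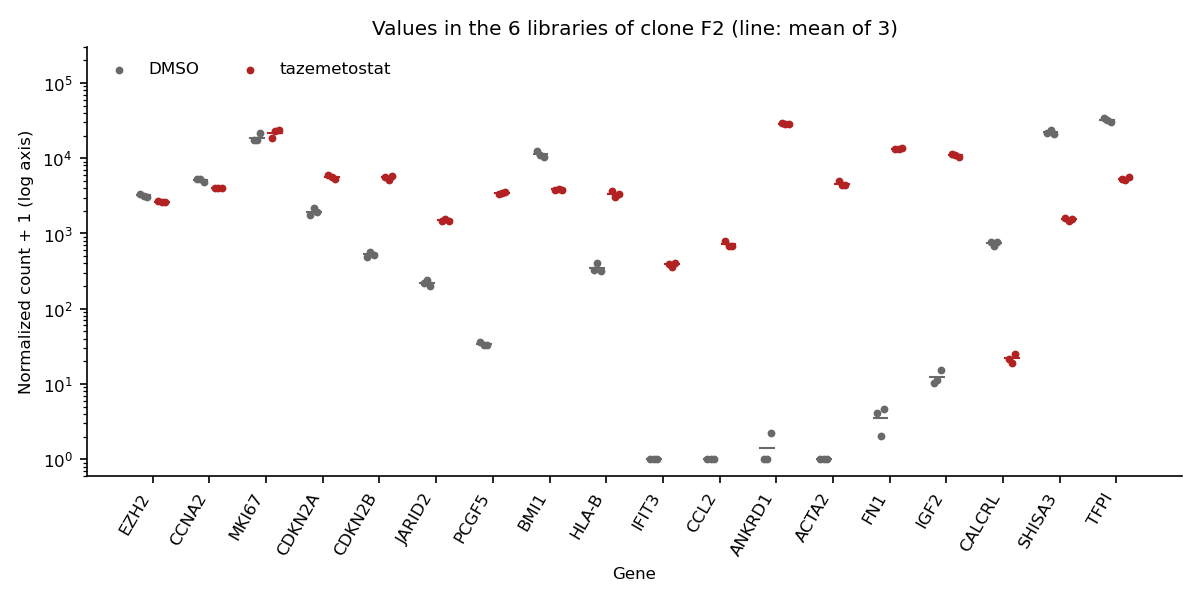
Normalized count + 1 (log axis) of 18 genes in each of the 6 F2 libraries, 3 with DMSO (grey) and 3 with tazemetostat (red), with the mean of 3 as a line. The groups overlap in MKI67, lie close in EZH2 and CCNA2, and are separate by over 1 order of magnitude in most genes from PCGF5 on, upwards in ANKRD1 and downwards in CALCRL.

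The transcript of the drug's target was under the size limit. EZH2 was 3373, 3161 and 3088 normalized counts with DMSO and 2717, 2599.9 and 2632 with tazemetostat, which is -0.27 ± 0.07 (SE) on the log2 scale (adjusted p of 0.00229 by limma), with groups that did not overlap. Of 13 tested PRC2 genes 1 rose, where 13.0% of all tested genes did. The values of the catalytic homologue EZH1 and of the core subunits EED and SUZ12 changed by 0.01, -0.23 and -0.17. The gene that rose was JARID2, an accessory subunit that helps PRC2 to its targets: 217, 238 and 199 with DMSO and 1471, 1533 and 1481 with tazemetostat, a rise of 6.86-fold. Among 22 genes of PRC1, the complex that reads the PRC2 mark, 1 rose and 1 fell, beside 13.0% and 3.75% of all tested genes. Both genes encode alternative subunits of the same position. PCGF5 rose from 34.8, 32.2 and 31.5 to 3323, 3429 and 3568, while its relative BMI1 (PCGF4) fell from 12288, 10939 and 10469.7 to 3831, 3874 and 3826. PCGF5 thus stood close to BMI1 in counts with tazemetostat, where with DMSO the 2 differed by orders of magnitude; counts are not scaled to length. The chromobox subunits CBX2 and CBX7 were -0.67 and -0.28 on the log2 scale, under the size limit.

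In F2 few cell cycle genes passed the threshold, beside 13.0% of all tested genes that rose and 3.75% that fell. In the list of 61 genes of G1 and S phase 2 rose, and none of 58 genes of G2 and mitosis passed the threshold with limma, edgeR or DESeq2. At an unadjusted limma p under 0.05, 8 genes of the latter list were higher and 19 lower, and 5 of the former were higher and 36 lower. Without the limit on size, 32 G1/S genes were lower and 4 higher at an adjusted p under 0.05, and 53 of the 61 values were below 0. The medians were -0.21 and -0.09. The 2 G1 genes that rose encode partners that drive exit from G1: CDK6 went from 3.07, 1.04 and 3.64 to 2483, 2994 and 3072 and cyclin D2 (CCND2) from 36.9, 33.2 and 27.9 to 6395, 6603 and 6676. The proliferation marker MKI67 was 17212, 17296 and 21806 with DMSO and 18484, 23226 and 23440.4 with tazemetostat, with overlapping groups (limma adjusted p = 0.15). Cyclin A2 (CCNA2) had a log2 change of -0.38, cyclin E1 (CCNE1) one of 0.19 and E2F1 one of -0.30, all under the size limit.

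Of 7 tested inhibitors of cyclin-dependent kinases 2 rose, the INK4 members that share a locus. CDKN2A, which encodes p16 and ARF, went from 1762, 2189.8 and 1904 to 6000.2, 5569 and 5223, a log2 change of 1.52 ± 0.09 (SE), and CDKN2B, which encodes p15, from 486, 575 and 519 to 5639, 5184 and 5847, a change of 3.40 ± 0.09. An antisense gene overlaps this locus. The library kit keeps the strand, but whether counting used the strand is not given in the sources used here, so reads of the genes may not be resolved. CDKN1A, which encodes p21, was 2792 ± 133 and 5287 ± 201 (SD, n = 3), a log2 change of 0.92 just under the limit, and CDKN1C was at -0.01. The other INK4 members, CDKN2C and CDKN2D, named after their values were seen to complete the family, were at -0.72 and 0.11. Among 19 pocket protein, E2F and partner genes, E2F7 rose and E2F2 and TFDP2 fell. Over all tested genes 13.0% rose and 3.75% fell. E2F7, a repressor among the E2F factors, was 469, 457 and 479 with DMSO and 2697, 2822 and 2778 with tazemetostat. The activator E2F2 fell from 1325, 1311 and 1347 to 600.0, 646 and 574, and the dimerization partner TFDP2 fell by 1.02 log2 units, a call lost without F2 tazemetostat replicate 1.

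The promoters of EZH2 (chr7:148884292-148884531, minus strand) and E2F7 (chr12:77065570-77065809, minus strand) are printed because these E2F-regulated genes differed in response. Both hold 4 CCAAT matches over both strands.
EZH2: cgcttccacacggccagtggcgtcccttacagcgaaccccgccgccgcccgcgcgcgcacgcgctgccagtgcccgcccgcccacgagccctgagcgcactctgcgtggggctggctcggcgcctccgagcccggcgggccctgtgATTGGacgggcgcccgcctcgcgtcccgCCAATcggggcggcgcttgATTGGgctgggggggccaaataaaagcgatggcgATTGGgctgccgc
E2F7: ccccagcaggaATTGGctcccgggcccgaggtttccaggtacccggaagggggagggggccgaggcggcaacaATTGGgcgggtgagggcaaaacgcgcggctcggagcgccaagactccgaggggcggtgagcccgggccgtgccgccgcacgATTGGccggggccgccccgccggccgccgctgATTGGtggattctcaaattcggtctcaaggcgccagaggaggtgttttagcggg

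Cell cycle genes responded differently in F2 and WT. The response of F2 was above that of WT in 808 genes (4.99% of tested) and below it in 368 (2.27%), or in 1055 and 266 with every library brought to the same total. A response difference is the log2 change in F2 minus that in WT, tested in 1 limma fit. In the G1/S list 26 of 61 genes were above and in the G2/M list 41 of 58, with median differences of 0.86 and 1.08, against a median over all tested genes of 0.02. That scaling moved the median over all tested genes to 0.14 and those of the lists to 0.98 and 1.20. The median change in the WT line was -1.22 for G1/S and -1.14 for G2/M genes. By role, 11 of 19 mitotic kinases and regulators, 22 of 28 spindle and kinetochore genes and 8 of 11 genes of chromosome structure had a response above WT, as did 9 of 19 origin and 12 of 25 replication fork genes. EZH2 was 2478 ± 89.4 and 876 ± 42.1 in WT with DMSO and tazemetostat (SD, n = 3), and its response in F2 was 1.22 ± 0.10 (SE) log2 units above (limma adjusted p = 5.02e-08). CCNA2 was 1.57 and MKI67 1.62 above. Against E1, the response of F2 was above in 662 genes (4.09%) and below in 248 (1.53%). The median differences of the G1/S and G2/M lists were -0.07 and -0.10. The filter on the mean used the F2 libraries only, so a gene high in WT or E1 alone was left out. The split over all tested genes into responses above and below thus depends in part on the filter. The comparisons with WT and E1 share the F2 libraries. E2F7 exceeded both, by 2.25 ± 0.12 over WT and 1.71 ± 0.12 over E1, from 495 to 615 in WT and 1159 to 2074 in E1. E2F2 fell less in F2 than in WT, by 1.21, and its difference from E1 was 0.03.

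**Figure D3:**
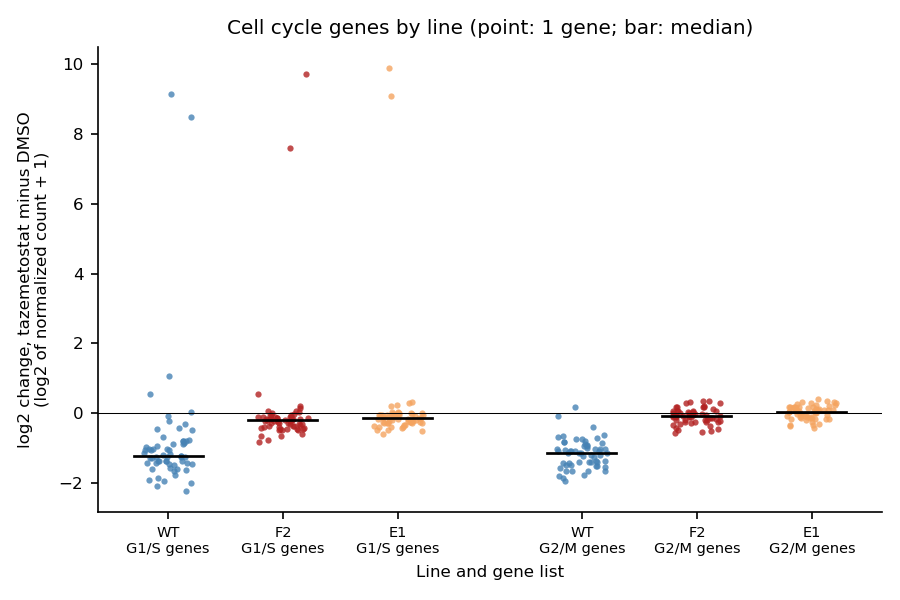
Log2 change with tazemetostat (log2 of normalized count + 1) of each tested G1/S and G2/M gene in WT, F2 and E1, with the median as a bar. The medians of F2 are -0.21 and -0.09 and those of WT -1.22 and -1.14; the 2 high points in each G1/S column are CDK6 and CCND2.

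Developmental transcription factors, the class for which Polycomb repression is best known, moved in both directions. Of 186 listed factors 105 were tested, 41 rose and 13 fell, with a median of 0.33. Over all tested genes 13.0% rose and 3.75% fell. Among the 81 tested members with a DMSO mean of at least 10, 18 rose, beside 6.35% of all such genes. The median of that subset was -0.19. Of 32 tested HOX genes 7 rose and 4 fell. The largest rises with a mean over 50 were in HES1, the forkhead factor FOXF1 of the lung and gut mesenchyme, the homeobox factor MSX2 and the zinc finger homeobox factor ZFHX4. FOXF1 had no read with DMSO and 230.1, 201 and 199 normalized counts with tazemetostat, at least 64.1-fold higher. MSX2 had 2 reads with DMSO and 352, 258 and 249.7, and ZFHX4 went from 2.05, 6.22 and 6.07 to 766, 871 and 899. In the kidney development list 14 of 24 tested genes rose (4 of 14 with a DMSO mean of at least 10). Its leading members include markers of the glomerulus and tubule: PODXL, the podocyte protein podocalyxin, went from 31.8, 21.8 and 26.7 to 6664, 6259 and 7273, and LRP2, the endocytic receptor megalin of the proximal tubule, from no read to 177, 183 and 235. The growth factor BMP7 rose from 4.08 to 714 and the receptor RET from 4.08 to 201 on average.

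In MHC class I and peptide loading 11 of 20 tested genes rose, beside 13.0% of all tested genes. The median was 1.08 against 0.02 over all tested genes. Where the DMSO mean was at least 10, 9 of 18 rose, beside 6.35% of all such genes. The heavy chain gene HLA-B went from 325, 402 and 320.4 to 3678, 3066 and 3384, which is 3.27 ± 0.10 (SE) on the log2 scale (adjusted p of 2.07e-15 by limma). HLA-C rose by 1.85. Class I heavy chain genes are near copies of each other, and reads shared between them make single values uncertain. The light chain B2M was 13013 ± 1177 and 22728 ± 1167 (SD, n = 3), a change of 0.81. NLRC5, the transactivator of class I genes, rose from 143 to 468 and the immunoproteasome subunit PSMB10 from 36.5 to 102. In MHC class II 8 of 11 rose and 2 fell, with a median of 4.72 (2.96 with members without a DMSO read at the floor), but 6 of the tested genes had a DMSO mean under 10. Of the other 5, 2 rose, and their median was -0.83. CIITA, the master regulator of class II, had no read with DMSO and 23.3, 27.3 and 25.9 normalized counts with tazemetostat, at least 7.78-fold higher. HLA-DPA1 and HLA-DPB1 rose from 6.5 to 473 and 3.84 to 201, and the invariant chain CD74 from 1463, 1609 and 1431 to 4303, 3707 and 3853. HLA-DMA, which loads peptides onto class II, fell from 322 to 146.

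Among interferon response genes 24 of 50 tested rose, beside 13.0% of all tested genes, with a median of 0.93. Among the 36 tested members with a DMSO mean of at least 10, 10 rose, beside 6.35% of all such genes. IFI16, a nuclear DNA sensor, had no read with DMSO and 1532, 1445 and 1494 normalized counts with tazemetostat, at least 455-fold higher. The guanylate-binding protein GBP1 was at least 177-fold, the antiviral effector IFIT3 at least 118-fold and the restriction factor SAMD9 at least 82.9-fold higher, each from no read. IFIT3 reached 392, 359 and 408. Its promoter (chr10:89327757-89327996, plus strand) is shown for the interferon class and holds 2 interferon elements and a TATA box. Those of GBP1 and SAMD9 hold 1 interferon element each, and that of IFI16 holds none.
IFIT3: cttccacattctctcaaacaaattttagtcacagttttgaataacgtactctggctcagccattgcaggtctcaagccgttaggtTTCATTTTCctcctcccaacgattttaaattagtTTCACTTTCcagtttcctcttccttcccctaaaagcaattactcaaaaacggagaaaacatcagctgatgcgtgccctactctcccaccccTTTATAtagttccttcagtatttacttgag
Of 50 cytokines and chemokines 25 were tested, and 18 of these rose, beside 13.0% of all tested genes. Where the DMSO mean was at least 10, 4 of 11 rose, beside 6.35% of all such genes. The median of the tested cytokines and chemokines was 5.00, or 3.71 with members without a DMSO read at the floor. The chemokine CCL2, which attracts monocytes, had no read with DMSO and 799, 676 and 681 normalized counts with tazemetostat. The neutrophil chemokines CXCL6, CXCL1 and CXCL5 also rose from no read, to 1372, 367 and 358. Interleukin 6 (IL6) went from 9.22, 9.34 and 3.64 to 266, 258 and 231.

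Responses above those in E1, which 4.09% of all tested genes had, were counted in 4 of 20 class I and 6 of 11 class II genes. The count was 4 of 50 in the interferon list and 9 of 25 among cytokines and chemokines, of which 4 were below E1. Genes were tested by their level in F2, so a gene high in E1 alone was left out of these counts. HLA-B rose 1.22 ± 0.14 (SE) further in F2 than in E1, where it went from 879.7 to 3626, and its difference from WT was 0.02. CD74 was 2755 and 3031 in E1, a response 1.25 below that of F2. HLA-DPA1 reached 87.4 in E1 and 454 in WT, and its response in F2 exceeded that in E1 by 3.64. CIITA and CCL2 had no read in any DMSO library of the 3 lines, so their differences rest on the tazemetostat libraries. CIITA reached 25.5 in F2 and 9.3 in E1, a difference of 1.39 by limma that was not called with edgeR (1.45, adjusted p = 1) or DESeq2 (1.26, adjusted p = 0.747). CCL2 reached 719 in F2, 31.8 in E1 and 1423 in WT; the excess over E1 was 4.46, with 4.49 (adjusted p = 1) for edgeR and 4.29 (adjusted p = 0.0702) for DESeq2. IL6 was higher in E1 than in F2 under both conditions (434 and 1275), and its rise in F2 was 3.45 greater.

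Many genes of the extracellular matrix rose. Of 89 listed 65 were tested and 40 of these rose, beside 13.0% of all tested genes, with a median of 2.11. A further 2 fell (1 without F2 DMSO replicate 1 or tazemetostat replicate 2), beside 3.75% of all tested genes. Among the 40 tested members with a DMSO mean of at least 10, 15 rose, beside 6.35% of all such genes. FN1, the matrix glycoprotein fibronectin, went from 3.07, 1.04 and 3.64 normalized counts with DMSO to 13183, 13108 and 13868 with tazemetostat. MFAP5, a microfibril protein, had no read with DMSO and 1712, 1667 and 1622 with tazemetostat, at least 509-fold higher. The response exceeded that of WT in 16 of the 65 genes and that of E1 in 19, where 4.99% and 4.09% of all tested genes did. These counts leave out genes that were high in WT or E1 alone, because the filter used the F2 libraries. For FN1 the excess over E1 was 2.48 ± 0.50 (SE), where E1 reached 4897.

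Of the integrins, which are receptors for this matrix, 9 of 18 tested genes rose, and of the laminins 3 of 9. In the list of both, 12 of 27 rose and 1 fell (median 0.72), beside 13.0% and 3.75% of all tested genes. With a DMSO mean of at least 10, 5 of 20 rose. The integrin chains ITGA2 and ITGB8 had no read with DMSO and reached 579 and 155, and the collagen-binding chain ITGA1 rose from 8.95 to 629.9. LAMB3, a chain of laminin 332 in epithelial basement membranes, had 1 read with DMSO and 4104, 3775 and 3902 normalized counts with tazemetostat. YAP and TEAD targets and Hippo genes rose in 12 of 37 (median 0.74), 11 of them among the 22 tested targets and 1 among the 15 effectors and kinases. Where the DMSO mean was at least 10, 6 of 31 rose, beside 6.35% of all such genes. Besides ANKRD1, the ectonucleotidase NT5E rose from no read to 1724, 1655 and 1928, the binding protein IGFBP3 from 2.47 to 5019 and the exchange factor DOCK5 from 5.23 to 2061.

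Smooth muscle genes rose in 12 of 23, beside 13.0% of all tested genes, with a median of 1.05. All 12 were among the 20 contractile genes. Among the 17 tested members with a DMSO mean of at least 10, 6 rose, beside 6.35% of all such genes. MYLK, the kinase that phosphorylates myosin light chain, had 1.02, 1.04 and 1.21 normalized counts with DMSO, 1 read in each library, and 746, 734 and 752 with tazemetostat. ACTA2 rose 1.63 ± 0.46 (SE) further than in WT and 3.20 ± 0.46 further than in E1; it reached 4581 in F2, 3044 in WT and 5467 in E1, with DMSO values of 0 in F2 and 10.1 in E1. With a pseudocount of 5 the difference from WT was 0.93, under the size limit, and that from E1 was 1.33. MYLK rose 3.05 further than in WT and 1.96 further than in E1, and reached 226 and 364 there. With a pseudocount of 5 the differences of MYLK were 2.33 and 1.43. The difference from E1 had an adjusted p of 0.0539 with DESeq2. The promoter of MYLK (chr3:123620549-123620788, minus strand) is printed for the contractile class. It holds a CArG box, the letters known for serum response factor, beside overlapping TATA matches and a CCAAT match. The windows searched for ACTA2, CALD1, TPM1 and MYH9 held no CArG box. For ACTA2 the window was chr10:88991338-88991577, minus strand. Other starts of these genes were not searched.
MYLK: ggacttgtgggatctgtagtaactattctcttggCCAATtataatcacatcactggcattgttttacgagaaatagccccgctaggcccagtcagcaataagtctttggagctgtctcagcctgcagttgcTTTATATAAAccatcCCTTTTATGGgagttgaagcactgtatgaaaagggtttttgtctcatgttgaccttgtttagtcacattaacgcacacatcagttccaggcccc
In skeletal and cardiac muscle genes 8 of 22 rose, beside 13.0% of all tested genes, and 7 of the tested members had a DMSO mean under 10. Where the DMSO mean was at least 10, 1 of 15 rose, beside 6.35% of all such genes. The cardiac troponin TNNT2 went from 4.1, 2.07 and 9.71 to 326, 324 and 347, the factor MEF2C from no read to 168 and nebulin (NEB) from 29.3 to 108. The defining myogenic factor MYOD1 was at 0 with DMSO and 8.5 normalized counts with tazemetostat, below the filter.

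**Figure D4:**
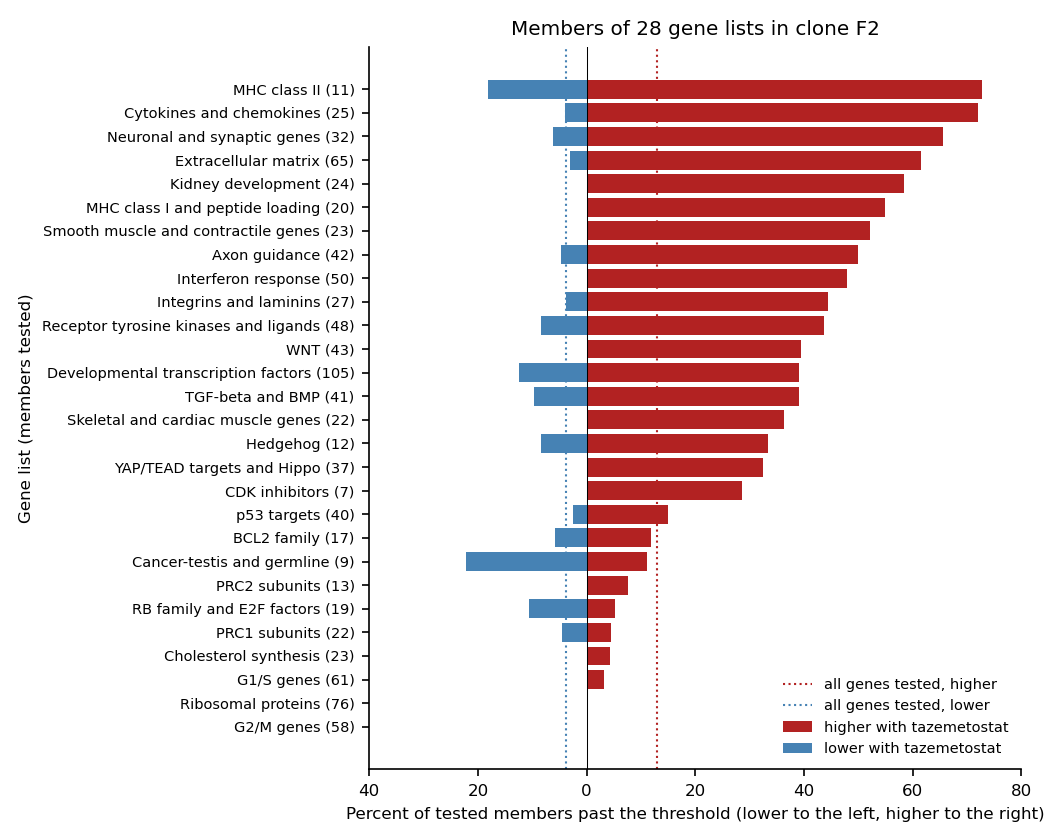
Percent of the tested members of each of 28 gene lists that rose (red, to the right) or fell (blue, to the left) in clone F2, with the number tested in brackets. Dotted lines mark the shares over all tested genes, 13.0% higher and 3.75% lower; the G2/M and ribosomal lists have no bar. Lists with many genes near 0 in DMSO are favoured by the filter on the mean.

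Neuronal and synaptic genes rose in 21 of 32 tested and fell in 2 (1 without F2 tazemetostat replicate 3). Over all tested genes 13.0% rose and 3.75% fell. Of the 69 listed, 37 did not pass the filter. Among the 19 tested members with a DMSO mean of at least 10, 8 rose, beside 6.35% of all such genes. Of the defining neuron markers, TUBB3 was 2844 with DMSO and 6089 with tazemetostat, and SYP was 324 and 202 (log2 -0.69, under the size limit). Their part in the counts was not tested. After CNTNAP2, the leading members were adhesion molecules and a microtubule protein. The neural adhesion molecule NCAM1 had 1 read with DMSO and 469, 440.1 and 475 normalized counts with tazemetostat, CADM1 went from no read to 216 and the dendritic protein MAP2 from 5.12, 5.19 and 6.07 to 1054, 1118 and 1149. Axon guidance genes rose in 21 of 42 (median 1.14), 11 of 32 where the DMSO mean was at least 10, beside the same shares over all genes. By role, 8 of 20 ligands and 13 of 22 receptors rose. Of the ligands, SLIT3 had 2 reads with DMSO and 835, 819 and 819.5 with tazemetostat, and netrin 1 (NTN1) went from 7.17, 6.22 and 7.28 to 1479.7, 1347 and 1334. Of the receptors, NRP2 has been given above, and plexin A2 (PLXNA2) had 0, 0 and 3.64 and 1079, 1145 and 1116.

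Genes of signalling pathways are given by role. Over all tested genes 13.0% rose and 3.75% fell, and 6.35% of those with a DMSO mean of at least 10 rose. In the TGF-beta and BMP list 7 of 12 ligands, 4 of 17 receptors and SMADs and 5 of 12 inhibitors and targets rose, and 4 of all 41 genes fell. Where the DMSO mean was at least 10, 10 of 35 rose. BMP6 went from 11.3, 9.34 and 17 to 885, 797 and 975 and the BMP effector SMAD1 from 3.07, 4.15 and 3.64 to 889, 909 and 874; the activin subunit INHBA rose from no read to 147. In the WNT list 6 of 13 ligands, 4 of 19 receptors and mediators and 7 of 11 inhibitors rose. Where the DMSO mean was at least 10, 7 of 33 WNT genes rose (median 0.07), and 2 of 9 ligands did. The secreted WNT inhibitor DKK1 went from 2.05, 2.07 and 2.43 to 2586, 2364 and 2318, the potentiator RSPO1 from 3.57 to 176 and the feedback inhibitor NKD1 from 5.22 to 202. Of 12 Hedgehog genes 4 rose, all with a DMSO mean under 10; 8 members had a higher DMSO mean, with a median of -0.06. Receptor tyrosine kinases rose in 7 of 24 and fell in 3, and their ligands rose in 14 of 24. Where the DMSO mean was at least 10, 2 of 19 receptors and 7 of 17 ligands rose. Insulin-like growth factor 2 (IGF2), an imprinted fetal growth factor, went from 9.22, 10.4 and 14.6 to 11529.5, 11125 and 10310.0, a rise of 965-fold. MET, the receptor of hepatocyte growth factor, rose from no read to 1104, 1155 and 1141, at least 346-fold, and the ligand PDGFC from 3.46 to 356.

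Of 40 p53 targets 6 rose and 1 fell, where 13.0% and 3.75% of all tested genes did. The death receptor FAS had 1 read with DMSO and 790.3, 831 and 763 normalized counts with tazemetostat, the polo-like kinase PLK2 went from 15.9 to 1383, and 14-3-3 sigma (SFN) from 1341, 1777 and 1585 to 12328, 11378 and 10683. Within the BCL2 family the proapoptotic BMF fell by 1.33 log2 units and the survival gene BCL2L1 was at 1.00, on the limit: it was below it under TMM scaling (0.99) and without F2 DMSO replicate 1 (0.99) or 3 (0.95) or tazemetostat replicate 1 (0.99) or 2 (1.00). One of 23 cholesterol synthesis genes rose, SC5D, from 1212 to 2617. In the cancer-testis and germline list 9 of 57 were tested; PRAME and 1 other fell, and the meiotic cohesin REC8 rose from 61.3 to 126, a call lost without F2 DMSO replicate 1 (0.89). None of 76 ribosomal protein genes passed the threshold with limma, edgeR or DESeq2, although 66 were lower and 1 higher at an unadjusted limma p under 0.05. Their median was -0.39, and 75 of 76 values were below 0; the median was -0.41 with every library at the same total.

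The 5 genes whose rise in F2 exceeded that in both other lines most were PLXNA2, PRICKLE2, RNF182, HMCN1 and MAMLD1. In the first 4 the lines differed in their DMSO levels. PRICKLE2, a planar cell polarity protein, had no read in F2 with DMSO, against 66.5 ± 2.65 in WT and 1263 ± 204 in E1 (SD, n = 3), and with tazemetostat it was 2637, 4193 and 3880.3 in the same order. Its response exceeded those of WT and E1 by 5.41 and 9.73. HMCN1, the matrix protein hemicentin, had 1 read in F2 with DMSO, 150.3 normalized counts in WT and 7493 in E1; with tazemetostat F2 had 379, 529.9 and 474 and E1 still 7788. The ubiquitin ligase RNF182 had 1 read in F2, 141 in WT and 1674 in E1 with DMSO, and 417, 692 and 1056 with tazemetostat. For PLXNA2 the DMSO values were 1.21, 66.1 and 272, and those with tazemetostat 1113, 1995 and 2099. In all 4, F2 with tazemetostat stayed below both other lines with tazemetostat. MAMLD1, a Notch coactivator-like protein, differed instead with tazemetostat: 254, 240.2 and 220.1 in F2, 15.8 in WT and 3.85 in E1, from at most 1 read in any DMSO library. Its difference from WT (4.16) and from E1 (5.79) had edgeR adjusted p of 0.0836 and 1, at differences of 5.71 and 5.87 in that fit. Fitted differences of genes with few or no reads with DMSO depend on the pseudocount and are no bounds. With a pseudocount of 5, that of PRICKLE2 was 3.17 from WT and 7.42 from E1 and that of HMCN1 2.94 and 6.36. That of RNF182 was 4.03 and 6.95 and that of PLXNA2 2.71 and 4.61.

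In the opposite direction, 4 genes rose in F2 but less than in both other lines, and 1, CLDN16, fell. NAV2, a neuron navigator protein, was already 3031, 3041 and 3639 in F2 with DMSO, against 31.5 in WT and 7.51 in E1, and all 3 lines reached similar means with tazemetostat: 11618, 12395 and 12229. Its response was -6.75 ± 0.38 relative to WT and -8.79 ± 0.38 relative to E1 (SE). OGFRL1 had the same layout, with 1515 in F2, 103 in WT and 4.71 in E1 with DMSO. RASGRP3, an activator of RAS, was 44.9, 14.6 and 0.619 with DMSO and 141, 405 and 107 with tazemetostat. The tight junction protein CLDN16 fell in F2 from 163, 172 and 129.8 to 10.7, 12.1 and 11.1, was 51 and 41.3 in WT and rose in E1 from 1.91 to 21.4. The peptide neurotensin (NTS) had at most 2 reads in any DMSO library and reached 309.5 in F2, 810.0 in WT and 1491 in E1. Its difference from WT was -1.94 by limma, -2.88 with edgeR (adjusted p = 0.111) and -3.10 with DESeq2 (adjusted p = 0.104).

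**Figure D5:**
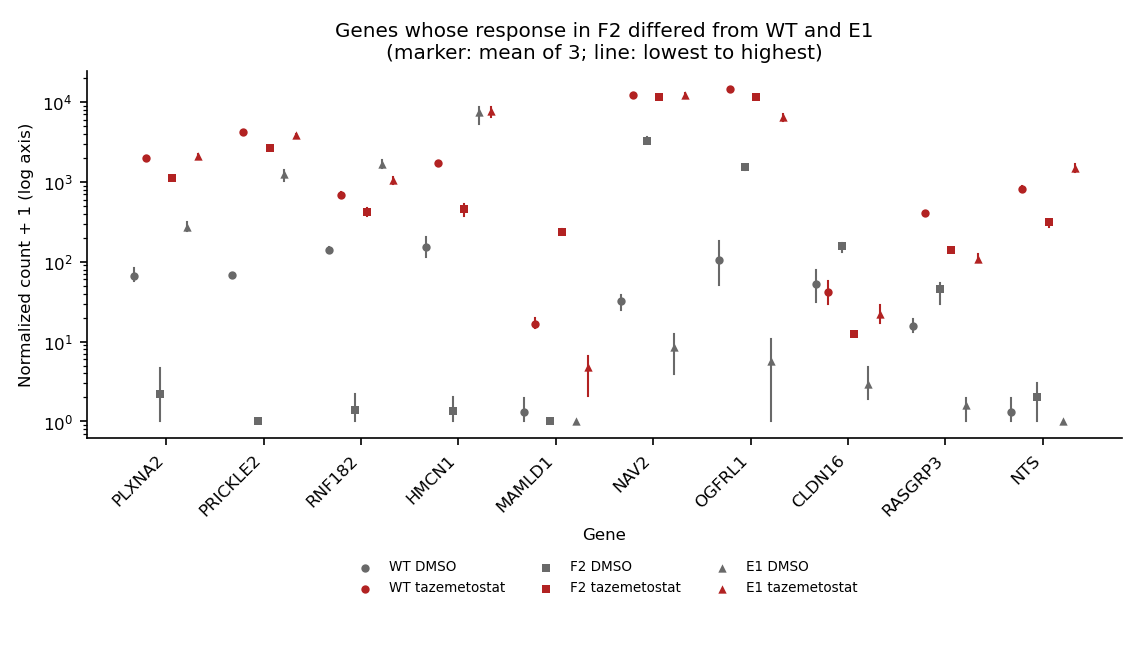
Normalized count + 1 (log axis) of the 10 genes whose response in F2 differed most from both WT and E1, as the mean of 3 libraries (marker) with the lowest to highest (line), with DMSO in grey and tazemetostat in red. F2 with DMSO is the lowest point in PLXNA2, PRICKLE2, RNF182 and HMCN1 and the highest DMSO point in NAV2, OGFRL1, CLDN16 and RASGRP3.

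Further named genes differed from 1 or both lines. CRYAB rose 2.22 ± 0.14 (SE) further than in WT and 2.76 ± 0.14 further than in E1; with DMSO it was 586 in F2, 3528 in WT and 5924 in E1, and with tazemetostat F2 was lowest on average at 25874. CYFIP2, a p53-inducible actin regulator, rose from 93.9 to 2795, which is 1.33 more than in WT and 4.09 more than in E1. JARID2 reached nearly the same level with tazemetostat in F2, WT and E1 (1495, 1436 and 1471) but started higher in F2, so its response was -1.03 against WT and -2.24 against E1. The first of these lay within the size limit under the same total (-0.90) and without F2 DMSO replicate 2 (-0.96), WT DMSO replicate 1 (-0.97) or WT tazemetostat replicate 3. SHISA3 fell further than in WT, with a difference of -2.26. PRICKLE1, the homologue of PRICKLE2, was 3513 ± 155 and 2543 ± 83.6 in F2 (SD, n = 3), a change of -0.47, whereas it rose in WT from 34.3 to 340.2, a response difference of -3.74. PGBD5, a transposase-derived gene expressed in rhabdoid tumours, rose from 68.6, 97.5 and 86.2 to 730.1, 703 and 744; in E1 it went from 2.56 to 999, and the response of F2 was -5.13 relative to E1.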

How the data were processed

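RNA-seq of the 18 G401 cultures was analysed from a table of gene values. Reads were processed with Trim Galore 0.4.4, STAR 2.6.0a, HTSeq and DESeq2 on hg19, per the submitters' processing notes; the annotation and strand setting are not given in the sources used here. The deposited values are a normalized signal, that is, counts divided by a DESeq2 size factor per library by the authors, and 100% of the values came out as whole reads (tolerance 0.001). The 25709489 to 39314860 reads per library set the counting error. Values were compared as log2(value + 1) with limma 3.58.1 (R 4.3.3): 1 fit of 6 group means over 18 libraries with a trended variance, and Benjamini-Hochberg adjustment over the 16193 genes with a mean of at least 10 over the F2 libraries. Calls needed an adjusted p below 0.05 with at least 1 log2 unit of change. A response difference is the contrast of the F2 change with that of WT or E1. On the recovered reads, edgeR 4.0.16 (quasi-likelihood test, TMM) called 2121 genes higher and 648 lower, and DESeq2 1.42.0 called 2121 and 612. The fits were tested on simulated data.

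Named genes were those of a short panel, the 12 largest rises and 10 largest falls with a mean of at least 50, the 10 largest gains and 5 largest losses of normalized counts, up to 4 members of each list, and the 5 largest differences each way from both other lines. The 12 rises and 10 falls were taken only from genes whose F2 groups did not overlap. The members and lists were chosen with earlier results of these data known. A gene without a read in any DMSO library was set at 3 reads per library for a bound, and genes with 1 to 3 reads have a 95% exact interval that covers counting error only. Figures come from matplotlib 3.10.9 (Python 3.11.15). Promoters were taken from RefSeq, with 1 start per gene, since the files hold no coordinates. Replicate numbers did not pair the F2 libraries. A few genes that the rule names are not reported here.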

Additional observations from a re-analysis of the deposited data

Results flagged for a closer look

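What drew attention in each case is that the change with tazemetostat differed between cell lines, by the contrast of the changes within 1 limma fit (adjusted p under 0.05 and a log2 difference of at least 1). The response of clone F2 was above that of WT in 808 genes and below it in 368, and above that of E1 in 662 and below it in 248. The comparisons share the F2 libraries, so they are given side by side and not as independent results. The tested genes were chosen by their mean in F2, so the split into above and below depends in part on that filter.

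Several named genes exceeded both lines; the differences from WT and from E1 are given in that order, in log2 units. They are ACTA2 by 1.63 and 3.20, PLXNA2 by 4.47 and 6.43, PRICKLE2 by 5.41 and 9.73, RNF182 by 6.03 and 8.98 and HMCN1 by 4.96 and 8.41. The others are MAMLD1 by 4.16 and 5.79, E2F7 by 2.25 and 1.71, MYLK by 3.05 and 1.96, CRYAB by 2.22 and 2.76 and CYFIP2 by 1.33 and 4.09. Below both lines were NAV2 by -6.75 and -8.79, OGFRL1 by -4.38 and -7.76, CLDN16 by -3.40 and -6.71, RASGRP3 by -3.04 and -4.43, NTS by -1.94 and -3.14 and JARID2 by -1.03 and -2.24. In many of these the DMSO levels differed between the lines, with values given in the report. Differences of genes with few or no DMSO reads depend on the pseudocount. With a pseudocount of 5 those of ACTA2 were 0.93 and 1.33.

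Named genes that differed from WT alone under this rule were EZH2 by 1.22, CCNA2 by 1.57, MKI67 by 1.62, PRICKLE1 by -3.74, E2F2 by 1.21 and SHISA3 by -2.26. Named genes that differed from E1 were HLA-B by 1.22, CIITA by 1.39, CD74 by 1.25, CCL2 by 4.46, IL6 by 3.45, PGBD5 by -5.13, FN1 by 2.48 and HLA-DPA1 by 3.64. A difference from 1 line and none called from the other does not show that the lines differ from each other.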

How the results depend on the processing

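With an adjusted p alone and no limit on fold change, 4646 genes were higher and 3750 lower in F2, 2239 responses were above and 2062 below WT, and 1399 above and 948 below E1. A filter at a mean of 1 gave 3664 higher genes and one at 50 gave 1322, with 237 responses below WT, 406 above E1 and 160 below E1; fewer or more genes tested is part of the construction of these filters. All other counts over all genes were within 1.5 times those reported, under pseudocounts of 0.5 and 5, the same total in every sample, TMM scaling, edgeR, DESeq2 and single libraries left out. Response differences were fewer with edgeR and DESeq2: 653 and 623 above WT, 300 and 284 below it. Against E1 these fits called 479 and 468 above and 192 and 173 below. Of the 662 genes above E1, 453 and 434 were shared with them. Leaving out 1 library at a time gave 2089 to 2168 genes higher, 596 to 633 lower, 701 to 890 above and 336 to 368 below WT, and 576 to 757 above and 216 to 287 below E1. The same total in every sample changed the division of differences from WT to 1055 above and 266 below, against 808 and 368, and the median change over all genes from 0.02 to -0.0078; the BCL2 family median went from 0.02 to -0.01. Same-numbered F2 libraries had correlations of their deviations of 0.07, -0.13 and 0.15, and only replicate 3 correlated best with its own number, so the numbers were not taken to pair the samples. With a replicate block, 2116 genes were higher and 610 lower, 836 and 371 above and below WT, and 658 and 254 above and below E1. Of 120 named genes past the threshold, 116 stayed past it under every alternative that tested them; BCL2L1, TFDP2 and REC8 were among the exceptions. Of 46 response differences, 38 did so. The difference of ACTA2 from WT was 0.93 with a pseudocount of 5. The cause of such changes was not tested. Depth limits the genes with few reads in DMSO: those with no read have a bound in place of a fold, and ANKRD1, with 1 read, has a wide counting interval.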

Other observations

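Transcripts with clone-based names, a naming used for many noncoding RNAs and pseudogenes, made up 1956 of the tested genes (12.1%). They were 161 of the 2113 genes that rose in F2 (7.62%) and 163 of the 608 that fell (26.8%).

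The 37 mitochondrially encoded genes took 5.25 ± 0.23% of all counts with DMSO and 4.49 ± 0.13% with tazemetostat in F2 (SD, n = 3).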
